A study of Mus musculus with 8 samples.

Results

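ERVL-MaLR elements are LTR retrotransposons of mammalian genomes, and 88 of their subfamilies were examined among the 18694 genes and repeat subfamilies of a total RNA-seq experiment in mouse embryonic stem cells (mES cells). The members were the rows of the authors' table assigned to the ERVL-MaLR family of the LTR class whose mean count reached 10, the mean being taken over all libraries after division by size factors. The paper set expression changes after acute depletion of METTL3, the methyltransferase that deposits N6-methyladenosine (m6A) on RNA, against annotations of m6A. The experiment comprised 8 libraries in 2 groups of 4. Cells of both groups carried METTL3 fused to FKBP12F36V, a degron tag, and came from a Cast x 129S background in which a TetOn promoter stood in for the endogenous Xist promoter. The labels place it on the 129S allele, whereas the paper places it on the Mus castaneus X chromosome. One group received dTAG-13, the compound that triggers degradation of the tagged protein, for 26 h, and the other did not. Neither group received doxycycline, and each was made up of 2 replicates of clone C3 and 2 of clone H5, 2 isolates of the edited line. All cells were grown on mitomycin-inactivated fibroblast feeders.

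The values used here are means over both groups together. No value per library was at hand, and the fold changes and p-values in the same table are the authors' own comparison and were not used, so whether any ERVL-MaLR subfamily changed upon METTL3 depletion was not analysed here. No error or replicate spread can be attached to a mean count for the same reason, and neighbours in the order of mean counts cannot be separated from each other. The values describe where the reads of this family came from in these cells. Sequences of the subfamilies are not shown.

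MaLR stands for mammalian apparent LTR retrotransposons. An intact copy has a long terminal repeat (LTR) at each end, which holds the promoter and the polyadenylation signal, and an internal sequence between them. The internal sequences of this family are not known to encode the proteins needed for retrotransposition, and the elements are thought to have spread with the proteins of related ERVL elements. Recombination between the LTRs of a copy leaves a solitary LTR, the form in which most copies persist. The MT and ORR1 groups belong to the rodent lineage, whereas MLT1 elements are shared widely among mammals and are far older. Within each group, early letters of the alphabet broadly mark younger subfamilies. MT elements are best known from the mouse oocyte, where their LTRs serve as promoters of many transcripts, including an oocyte form of Dicer that starts in an MTC copy.

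The labelled cell type was checked against its markers. All 10 embryonic stem cell markers were found, with mean counts from 1019 for Utf1 to 11934 for Pou5f1 and a median of 7377. The 12 fibroblast markers, which cover the feeders, had a median of 16.8. The collagens of this list were low, at 19.8 for Col1a1, 13.8 for Col1a2 and 8.38 for Col3a1. Fn1 (4941), Sparc (3052) and Vim (2073) of the same list were high, and which cells their RNA came from was not tested. RNA of feeder cells in the ERVL-MaLR counts was not tested.

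The family had 101 rows in the table, and 88 reached the mean count of 10 that defined the members. By prefix, 48 members fell in the mouse-lineage group, 20 of them MT and 28 ORR1. The ancient group held 39 members, all MLT1. No row of the family carried an MST or THE prefix. MLT-int, with a mean count of 109, carries none of these prefixes and was placed in neither group. The 13 rows under the minimum were all internal sequences, 12 of MLT1 and 1 of ORR1 (ORR1G-int), and together they held 0.0580% of the family's mean count. Just inside the minimum stood MLT1M (18.9), MLT1E2-int (11.3) and MLT1G3-int (10.1). Just outside it stood MLT1A-int (9.92), MLT1C-int (9.09) and MLT1B-int (6.73).

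The members added up to a mean count of 88125, which was 0.541% of all genes and repeats. That sum was 5.13% of the mean count of 896 repeat subfamilies that reached the same minimum. The repeat rows include repeats that are not transposable, above all the small nuclear RNA 7SK with a mean count of 274706, and without 7SK the share of ERVL-MaLR was 6.10%. Within the LTR class, which had 521 subfamilies at the minimum, ERVL-MaLR held 21.9%. A mean count sums reads over all copies of a subfamily in the genome. It was corrected neither for the number of copies nor for their length, so a larger count is more reads and not a higher level per copy.

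Among LTR families with 10 or more such subfamilies, ERVL-MaLR ranked below ERVK (211569 over 255 subfamilies) and above ERV1 (73487 over 89) and ERVL (28967 over 76) in summed mean count. Its highest row held a smaller share of its sum than the highest rows of those families did of theirs. The 10 highest rows of ERVL-MaLR held 51.0% of its sum, a share not computed for the other families. The row with the most reads, MTA_Mm-int, held 11.4% of the family's sum, against 33.5% for MMETn-int in ERVK, 58.4% for RLTR1B-int in ERV1 and 24.0% for MERVL-int in ERVL. An LTR and its internal sequence are separate rows here. MTA_Mm-int together with its LTR held 17.6%, and such pairs were not summed for the other families. The median member of ERVL-MaLR had a mean count of 360, against 130 in ERVK, 92.7 in ERV1 and 58.2 in ERVL. Internal sequences, identified by the ending of their names, supplied 31.8% of the ERVL-MaLR sum, 36.0% of that of ERVL, 66.4% of that of ERVK and 73.3% of that of ERV1. Subfamilies are not replicates, and these differences between families were not tested.

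**Figure D1:**
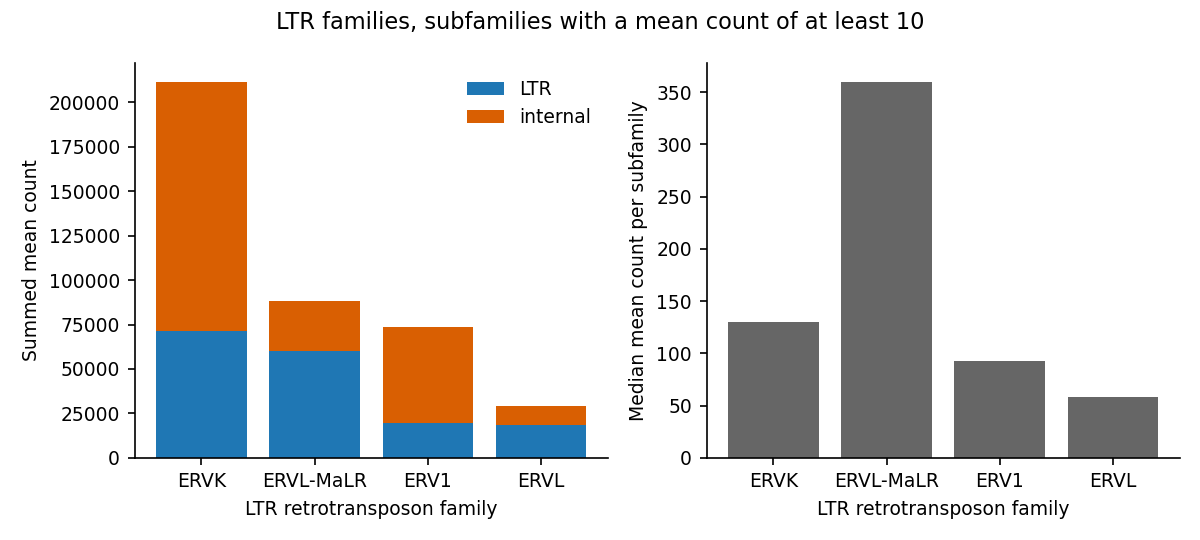
Summed mean count (left, LTR and internal sequences stacked) and median mean count per subfamily (right) for the families of the LTR class, over subfamilies that reached the minimum of 10. ERVL-MaLR came after ERVK in summed mean count, at 88125, and had the highest median of these families at 360.

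Reads of the family came largely from its rodent-lineage elements. The 48 MT and ORR1 members held 91.0% of the members' sum and the 39 MLT1 members 8.87%. The median mean count was 1004 in the mouse-lineage group, with a range from 71.8 to 10059, and 84.0 in the ancient group, with a range from 10.1 to 1164. The ratio of the medians was 11.9. It depends on the minimum that defines the members, which removes low rows mainly from the ancient group. All 23 members with the highest mean counts were MT or ORR1 elements, and the first MLT1 element ranked 24th of 88. The groups overlapped below that rank. Of the MLT1 members, 2 lay above the median of the mouse-lineage group, and 17 lay below its lowest member. Since the mean count itself set the membership, this contrast is a description and carries no test.

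**Figure D2:**
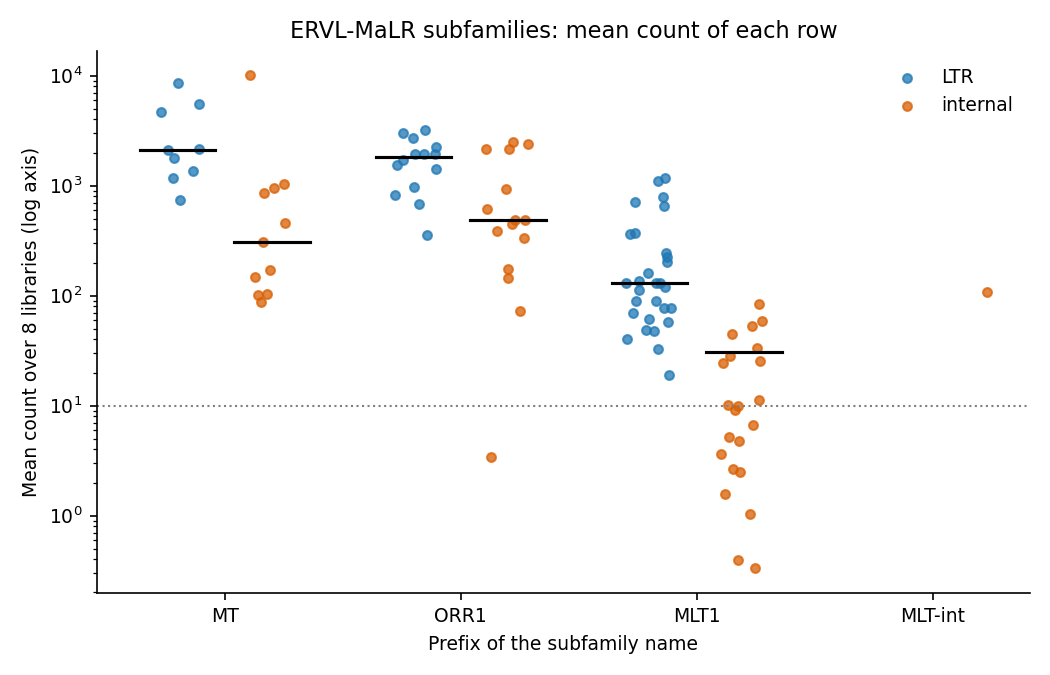
Mean count over 8 libraries on a log axis for every ERVL-MaLR row, by prefix of the name, with LTRs in blue and internal sequences in orange. Black bars mark the median of the rows at or above the minimum of 10 (dotted line), and the medians of LTRs were 2109 for MT, 1825 for ORR1 and 129 for MLT1.

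The contrast was present in LTRs and in internal sequences taken apart. The 23 mouse-lineage LTRs had a median mean count of 1937 and the 29 MLT1 LTRs one of 129, a ratio of 15.0. The 25 mouse-lineage internal sequences had a median of 455 and the 10 of MLT1 one of 30.8, a ratio of 14.8. The minimum had removed 12 of 22 MLT1 internal rows and 1 of 26 mouse-lineage ones. With all rows kept, an alternative chosen after seeing the data, the medians were 453 and 9.50 and the ratio was 47.6, so the closeness of 14.8 to the ratio of the LTRs depends on the minimum. Internal sequences made up 34.3% of the mouse-lineage sum and 4.77% of the ancient sum. MT and ORR1 were close to each other in this share, at 33.6% and 35.1%.

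MT elements held 48.1% of the members' sum. Of their letters, A, the youngest and made up of MTA_Mm alone, had the highest sum at 15538, followed by D with 9518. The internal sequence of MTA_Mm had the highest mean count of the family (10059), and its LTR ranked 3 in the family (5479). The pair supplied 36.6% of the MT sum, and MTA_Mm-int alone held 35.9% of the reads of all internal sequences among the members. MTD, an older LTR, ranked 2 in the family with a mean count of 8660, and MTC, the subfamily behind the oocyte Dicer promoter, ranked 4 with 4706. The LTRs of the MTE letter followed, with 2145 for MTEa, 2109 for MTE2a, 1784 for MTE2b and 1184 for MTEb. The MTB LTR had 1356, and MTB_Mm was the lowest of the 9 MT LTRs at 733. The mean counts of MT LTRs therefore did not fall steadily along the alphabet. The remaining MT internal sequences were MTC-int (1031), MTE-int (944), MTD-int (857), MTB-int (455), MTEa-int (307), MT-int (171), MTEb-int (146), MTB_Mm-int (104), MTE2a-int (101) and MTE2b-int (86.7). The count of MTA_Mm-int was 9.76 times that of MTC-int, the next of them.

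ORR1 elements held 42.9% of the members' sum, and no single subfamily stood out among them as MTA_Mm did among MT elements. The highest mean count was that of the ORR1B1 LTR, 3179. In letter A, the youngest, the LTRs had mean counts of 1712 for ORR1A0, 819 for ORR1A1, 2981 for ORR1A2, 678 for ORR1A3 and 2264 for ORR1A4. ORR1B2 followed ORR1B1 with 1413, and the LTRs of letter C had 977 (ORR1C1) and 1556 (ORR1C2). Letter D had 2738 (ORR1D1) and 1944 (ORR1D2). ORR1E (1937) and ORR1F (1946), which are older, were above the median ORR1 LTR of 1825. ORR1G, the last letter, was the lowest of the 14 ORR1 LTRs at 357. Letter A with its 10 rows held 45.1% of the ORR1 sum.

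Among ORR1 internal sequences, those of letter A lay between 607 and 2500, and the other letters did not follow the alphabet. ORR1A4-int (2500), ORR1A2-int (2389), ORR1A0-int (2161) and ORR1B1-int (2157) had the highest mean counts, so that ORR1B1-int lay within the range of letter A. ORR1A1-int (932) and ORR1A3-int (607) came next. From there the values went down through ORR1D-int (485), ORR1E-int (485), ORR1C2-int (450), ORR1D1-int (390) and ORR1D2-int (332) to ORR1C1-int (175), ORR1B2-int (144) and ORR1F-int (71.8). ORR1G-int, at 3.38, was under the minimum.

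**Figure D3:**
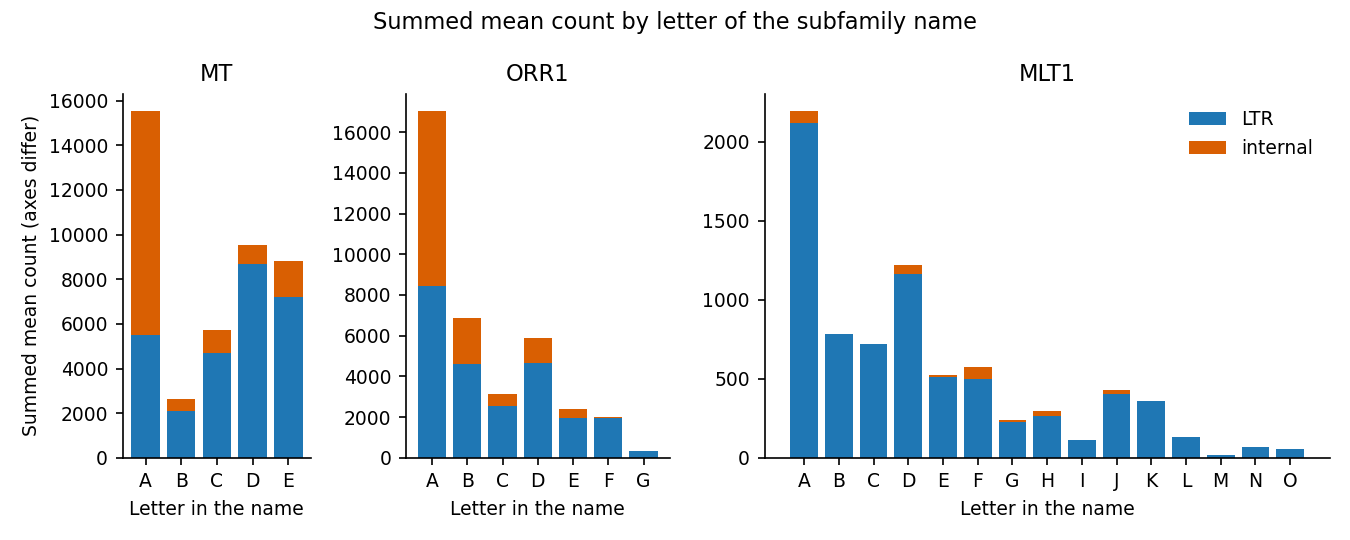
Mean count of the members summed by the letter in the subfamily name for MT, ORR1 and MLT1, with LTRs in blue and internal sequences in orange; the vertical axes differ. Letter A had the highest sum in each panel, with 15538 for MT, 17044 for ORR1 and 2195 for MLT1. Internal sequences formed a large part of it in MT and ORR1 only. The sums are over unequal numbers of rows, 2, 10 and 5 for letter A. By median, LTRs of letter A were below those of letter D, which was picked after the values were seen. The medians were 5479 against 8660 in MT (1 LTR each) and 1712 against 2341 in ORR1 (5 and 2 LTRs). In MLT1 they were 655 against 1164 (3 LTRs and 1).

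In the ancient group the reads came almost wholly from LTRs. The 5 MLT1 members with the highest mean counts were MLT1D (1164), MLT1A0 (1093), MLT1B (783), MLT1C (718) and MLT1A1 (655), all LTRs of the early letters. The 6 LTRs of letters A to D had mean counts from 369 to 1164 and held 64.2% of the sum of MLT1 LTRs. The 23 LTRs of letters E to O ranged from 18.9 to 362, with MLT1K the highest. The sets met at MLT1A (369) and MLT1K (362), neighbours in the order that cannot be separated. This split of the alphabet was chosen after the values were seen. Within the later letters no further order was apparent, since MLT1J (245) and MLT1K (362) lay above MLT1G (48.2) and MLT1H1 (62.0). None of the 10 MLT1 internal members reached a mean count of 100. They were MLT1-int (84.0), MLT1D-int (58.4), MLT1F-int (52.5), MLT1A0-int (44.9), MLT1A1-int (33.4), MLT1H-int (28.2), MLT1J-int (25.5), MLT1F2-int (24.4), MLT1E2-int (11.3) and MLT1G3-int (10.1).

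An LTR and the internal sequence of the same name could be paired for 44 subfamilies, and in 31 pairs both rows were members. The internal sequence had the higher mean count in 4 of these pairs. They were MTA_Mm, with a ratio of internal sequence to LTR of 1.84, ORR1A0 (1.26), ORR1A1 (1.14) and ORR1A4 (1.10). The other ORR1A pairs followed with 0.895 for ORR1A3 and 0.801 for ORR1A2. Without a replicate spread, whether any of the ORR1A ratios differs from equality cannot be judged. The ratio over the 5 ORR1A pairs lay between 0.801 and 1.26, and over the 8 other ORR1 pairs between 0.0369 (ORR1F) and 0.679 (ORR1B1). For MT, the 8 pairs other than MTA_Mm lay between 0.0479 (MTE2a) and 0.336 (MTB). Internal sequences with no LTR of the same name entered no pair, namely MTE-int (944), ORR1D-int (485), MT-int (171), MLT-int (109) and MLT1-int (84.0). The ratios of MTE and ORR1D pairs therefore leave out part of the internal reads. By letter, internal sequences summed to 1585 and LTRs to 7222 in MTE, and to 1208 and 4682 in ORR1D. The 9 MLT1 pairs had a median ratio of 0.104 and the highest was 0.384, for MLT1F. Over all 21 MLT1 pairs, without the minimum, the median was 0.0502. MLT1 pairs of letter A were low, at 0.0510 for MLT1A1, 0.0411 for MLT1A0 and 0.0269 for MLT1A, whose internal sequence was under the minimum. In the 13 pairs whose internal sequence was under the minimum, all but ORR1G belonged to MLT1. The contrast between letter A and the other letters within ORR1 was drawn after the values were seen. Internal sequences are longer than LTRs and solitary LTRs outnumber complete copies, and the part of length and copy number in these ratios was not tested.

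**Figure D4:**
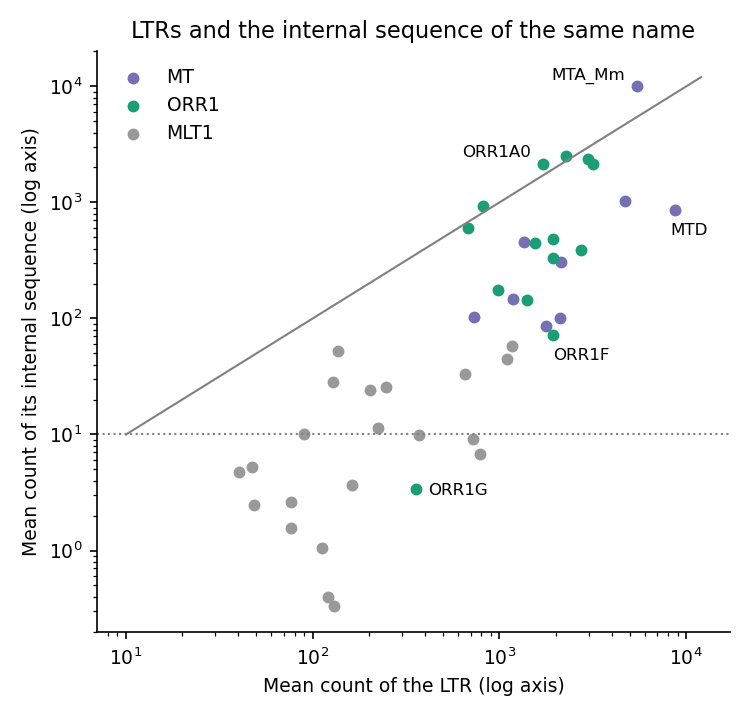
Mean count of each LTR (horizontal, log axis) against that of the internal sequence of the same name (vertical, log axis) for 44 ERVL-MaLR pairs, with equality as a solid line and the minimum of 10 as a dotted line. The 4 points above the line are MTA_Mm, ORR1A0, ORR1A1 and ORR1A4, and the MLT1 pairs all lie below it.

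Elements of the related ERVL family give a point of reference. MERVL-int, the internal sequence of the element that marks the embryo at the onset of zygotic transcription, had a mean count of 6961. MT2_Mm, its LTR, had 2179. MERVL_2A-int, a separate internal row of ERVL, had 2233 and was not added to MERVL-int in the comparison that follows. MTA_Mm-int (10059) and the MTD LTR (8660) were the 2 members with more reads than MERVL-int, and 10 of the 88 ERVL-MaLR members had more reads than MT2_Mm. The latter count is approximate, since MT2_Mm lay between ORR1A4 (2264) and ORR1A0-int (2161), neighbours that cannot be separated from it. These comparisons are of reads and not of level per copy.

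Set among all 896 repeat subfamilies at the minimum, whose median mean count was 118, 60 of the 88 ERVL-MaLR members (68.2%) lay above that median. These were 44 of the 48 mouse-lineage members and 16 of the 39 ancient ones. MTA_Mm-int stood at the 96.7th percentile of repeat subfamilies and MLT1D, the highest ancient member, at the 83.9th. Per the study's methods, only reads with a single placement were kept, so reads from near-identical copies of young subfamilies are missing from these counts, and the size of that loss was not tested. The library kit preserves strand and the table's name holds the word reverse, while the methods name the default parameters of TEtranscripts, which ignore strand, so the use of strand in counting is uncertain. Reads of introns or other parts of host transcripts that hold an LTR copy, where counted to the repeat, cannot be told apart from transcripts of the element itself.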

How the data were processed

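RNA from mES cells with degron-tagged METTL3 was sequenced in 8 libraries (4 treated with dTAG-13 for 26 h and 4 untreated). The labels and the study's methods name total RNA, but the labels' extraction protocol is one for chromatin-associated RNA. Per the methods, the authors discarded ribosomal RNA reads with bowtie2, aligned the rest to the N-masked mm10 genome with STAR and kept unique alignments. The authors then removed PCR duplicates with Picard and ran TEtranscripts at default parameters, so repeats were counted by subfamily over all copies. The authors deposited 1 table, whose signal column averages size-factor-scaled counts over all libraries (the mean count). Its 5 other columns hold the authors' log2 fold changes, their errors and statistics and the p-values of dTAG-13 against untreated cells, and none was used. No values per library were at hand, so depth per library, intervals and tests could not be given; a mean count of 10 stands for 80 scaled reads over 8 libraries.

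Members were taken by row name and mean count, grouped by prefix and by the ending "-int", and summarised as sums, medians and ratios in Python 3.11.15 with pandas 2.3.3. Named in the text are the 5 highest members of each lineage group, every internal sequence, every MT and ORR1 LTR and the 3 rows on either side of the minimum, with others chosen after their values were seen. The members and lists were chosen with earlier results of these data known. Minimums of 0 and 100, omission of internal sequences or of the highest row, and other denominators were tried as alternatives. p-values and genome coordinates are not reported.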

Additional observations from a re-analysis of the deposited data

How the results depend on the processing

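Mouse-lineage elements held most of the ERVL-MaLR mean count under every alternative tried. Their share, 91.0% as reported, was 92.1% with a minimum mean count of 100, 87.6% without internal sequences and 89.8% without MTA_Mm-int, the most abundant member. The ratio of the medians of both lineage groups was more sensitive: it was 11.9 as reported, 16.9 with no minimum, 4.97 with a minimum of 100, 15.0 without internal sequences and 11.6 with MLT-int counted as ancient, an alternative chosen after seeing the data. For internal sequences alone it was 14.8, and 47.6 with no minimum, and the median ratio of internal sequence to LTR in MLT1 pairs was 0.104, and 0.0502 with no minimum. The minimum of 100 removes 22 of 39 ancient and 2 of 48 mouse-lineage members. The share of ERVL-MaLR among repeats, 5.13%, was 21.9% of the LTR class and 6.10% without 7SK. The share of internal sequences, 31.8%, was 23.0% without MTA_Mm-int, also chosen after seeing the data. The number of members was 88, against 101 with no minimum and 64 with a minimum of 100. No paired analysis was possible because the table holds a single mean over all libraries, and for the same reason no replicate could be left out and no count filter or scaling could be compared between groups.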
